A study of Mus musculus with 3 samples.

Results

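The transcripts of the IL-1 and IL-18 family were followed in BMDMs, macrophages grown from mouse bone marrow, through 9 genes chosen by name: the agonists Il1a, Il1b, Il18, and Il33, the antagonists Il1rn and Il18bp, the receptor chains Il1r1 and Il1rap, and the decoy receptor Il1r2. These 9 were among 34813 gene names measured on all arrays and were read by 11 of 55659 probes, which occupied 20 spots. All cells came from C57BL/6J mice and had been cultured for 4 to 6 days with M-CSF (10 units/ml), the growth factor of macrophages. In the Triple condition, CpG at 0.063 µg/ml, IFN-γ at 100 U/ml, and αIL-10R were present together for 20 h. The IFN-γ + αIL-10R condition lacked CpG, and the CpG condition lacked the other agents, with dose and time kept the same. CpG is a DNA ligand of TLR9, IFN-γ is the main macrophage-activating cytokine of T and NK cells, and the antibody αIL-10R keeps the anti-inflammatory cytokine IL-10 from its receptor. Each condition had 1 array, an unstimulated array was not analysed here, and the number of animals is not given in the sources used here. Thus no difference between conditions has a replicate check and no test was made, and the parts of IFN-γ and αIL-10R, which were always given together, cannot be told apart.

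IL-1α and IL-1β bind the same receptor, a pair of the chains encoded by Il1r1 and Il1rap, and thereby activate the adaptor MyD88 and the transcription factor NF-κB. The family is unusual in how many brakes it has. The product of Il1rn occupies the receptor without signaling, the product of Il1r2 binds IL-1 but lacks a signaling domain, and the product of Il18bp captures IL-18 outside the cell. IL-1β and IL-18 are made as precursors that are cleaved by caspase-1 in inflammasomes, so that transcript levels do not give the amount of active cytokine. IL-18 is best known for eliciting IFN-γ from T and NK cells, and IL-33 is an alarmin of barrier tissues.

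The arrays read each gene with probes of 60 bases. Those of Il18 and Il1rn, an agonist and an antagonist with different patterns, lie over the end of the coding sequence, and are written 5′ to 3′ with the stop codon in capitals (mm9, chr9:50389761-50389820 and chr2:24205094-24205153, both on the plus strand).
Il18: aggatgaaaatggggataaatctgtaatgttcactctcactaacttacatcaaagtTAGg
Il1rn: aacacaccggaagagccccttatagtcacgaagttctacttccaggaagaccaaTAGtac

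The 250 bases upstream of the start of 5 members are shown 5′ to 3′ in the direction of transcription, for the 4 genes whose Triple signal exceeded both others by more than 2-fold and for Il18bp, which was not. They were taken from RefSeq (GRCm38.p6), whose table matched all 9 members with 13 starts, and for Il1rn the most upstream of its starts is given. The windows are chr2:129371140-129371389 on the minus strand for Il1b, chr2:129309973-129310222 on the minus strand for Il1a, chr2:24336610-24336859 on the plus strand for Il1rn, chr1:40085843-40086092 on the plus strand for Il1r2, and chr7:102018233-102018482 on the minus strand for Il18bp. Capitals mark matches to 1 of 5 motifs searched on both strands.
Il1b: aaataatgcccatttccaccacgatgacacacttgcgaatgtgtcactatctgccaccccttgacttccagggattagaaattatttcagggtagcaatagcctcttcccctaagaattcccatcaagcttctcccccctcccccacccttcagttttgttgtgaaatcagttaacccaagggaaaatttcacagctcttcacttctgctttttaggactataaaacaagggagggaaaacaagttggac
Il1a: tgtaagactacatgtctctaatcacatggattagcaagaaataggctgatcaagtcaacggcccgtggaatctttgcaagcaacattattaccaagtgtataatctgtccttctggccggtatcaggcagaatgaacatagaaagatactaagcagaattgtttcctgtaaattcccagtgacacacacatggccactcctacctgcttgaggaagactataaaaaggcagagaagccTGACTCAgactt
Il1rn: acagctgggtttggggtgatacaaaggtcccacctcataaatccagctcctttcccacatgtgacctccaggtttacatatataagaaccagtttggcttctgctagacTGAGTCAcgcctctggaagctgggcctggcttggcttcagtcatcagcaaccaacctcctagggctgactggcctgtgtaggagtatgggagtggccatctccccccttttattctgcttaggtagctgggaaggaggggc
Il1r2: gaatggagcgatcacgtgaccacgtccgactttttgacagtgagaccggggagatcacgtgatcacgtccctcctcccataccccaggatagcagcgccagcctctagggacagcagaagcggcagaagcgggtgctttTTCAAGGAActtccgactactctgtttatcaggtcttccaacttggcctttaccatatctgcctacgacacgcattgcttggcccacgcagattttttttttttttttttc
Il18bp: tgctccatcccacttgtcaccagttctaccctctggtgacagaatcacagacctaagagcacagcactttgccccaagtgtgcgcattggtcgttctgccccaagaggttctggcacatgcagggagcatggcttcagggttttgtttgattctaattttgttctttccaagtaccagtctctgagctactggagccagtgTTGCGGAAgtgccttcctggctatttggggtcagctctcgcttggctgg

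Upstream of Il1a, an AP-1 motif (TGANTCA) lay at −12, counted from the start to the first base of the match. Another lay at −141 from the most upstream start of Il1rn, whereas the windows of its other starts held none of the 5 motifs. The AP-1 motif was found in 6.75% of all 32851 upstream windows in the table. A STAT-type GAS motif (TTCNNNGAA, in 7.02% of all windows) lay at −111 upstream of Il1r2, and a C/EBP motif (TTGCNNAA, in 9.56%) lay at −49 upstream of Il18bp. The window of Il1b held none of the 5 motifs, which also included κB (GGANTTTCC, in 1.07%) and the ISRE core (GAAANNGAA, in 7.13%). No match overlapped another, and a match or its absence in these 250 bases is a description of the letters only.

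All values are processed signals of the scanner, intensities in arbitrary units, and a spot was taken as measured where the software called it well above background. The lowest such signal was 23.8 on the CpG array, 26.7 on the IFN-γ + αIL-10R array, and 14.6 on the Triple array. A dimmer signal was raised to this value, after which its fold is a lower bound. Folds were computed after each array had been shifted by its 75th percentile, which lay between 4401 and 4580, so that they differ slightly from the quotient of the signals given here. Probes spotted repeatedly gave a technical SD within an array of 0.26 to 0.33 (log2) for signals under 100, 0.08 to 0.12 between 100 and 1000, and 0.05 to 0.06 over 1000. The intervals given with folds are 95% intervals from this spot noise and do not contain differences between cultures. No spot was saturated.

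Relative to CpG alone, Triple showed signals higher by more than 2-fold for Il1a, Il1b, Il18, Il1rn, Il18bp, and Il1r2, 6 of the 9 members, and lower by more than 2-fold for 0, where 7.54% of all genes well above background on either array were more than 2-fold higher and 10.2% were more than 2-fold lower. Relative to IFN-γ + αIL-10R, Triple was more than 2-fold higher for Il1a, Il1b, Il1rn, and Il1r2, 4 of 9, and more than 2-fold lower for 0, with 6.6% of all genes higher and 10.8% lower. CpG against IFN-γ + αIL-10R divided the family at the same threshold: Il1b and Il1rn were higher, Il18 and Il18bp were lower, and the shares of all genes were 5.04% and 5.84%. The 4 members that exceeded both other conditions by more than 2-fold in Triple compare with 3.73% of 19536 genes. Every pair of these comparisons shares 1 array, so that an error in that array enters both. In such bulk RNA, fewer cells of a type and less RNA per cell cannot be told apart.

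**Figure D1:**
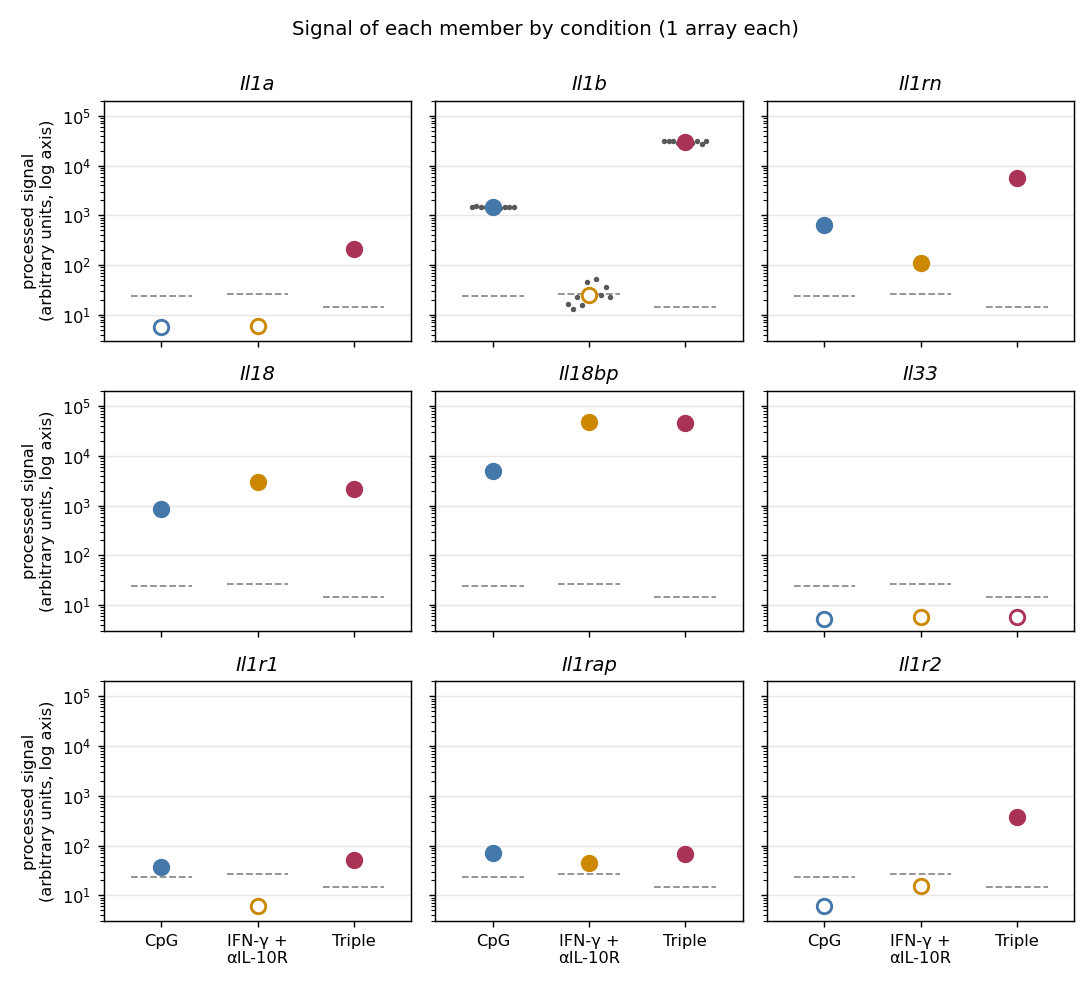
Processed signal (arbitrary units, log axis) of the 9 members in the 3 conditions, with 1 array each. Filled circles were well above background, open circles were not, dashed lines mark the lowest signal well above background on each array, and small points in the Il1b panel are its 10 spots. Il1a and Il1r2 lie over the dashed line in Triple alone, and Il18bp is similar in IFN-γ + αIL-10R and Triple, at 47551 and 46362.

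Il1b, which encodes the main IL-1 agonist of activated macrophages, had the widest range of the family. Its probe (mm9, chr2:129190347-129190406, minus strand) is spotted 10 times on each array. The spots read 1370 to 1524 (median 1443) after CpG, 12.8 to 52.6 (median 24.1) after IFN-γ + αIL-10R, and 27260 to 31303 (median 30841) with Triple. The 3 ranges did not overlap, and with IFN-γ + αIL-10R only 4 of the 10 spots were well above background. Triple was 21.7-fold higher than CpG, a log2 fold of 4.44 (4.39 to 4.49), and ranked 65th among 19041 genes. Over IFN-γ + αIL-10R the fold was at least 1157, the first of 18767 genes ranked by fold or bound. CpG alone was at least 53.4-fold higher than IFN-γ + αIL-10R and ranked 10th of 18981. Both bounds rest on the mean of the 10 spots with IFN-γ + αIL-10R, raised to the lowest signal well above background. They leave out the SD of these spots, 0.67 (log2), so that the folds may lie under them.

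Il1a, which encodes the other ligand of the IL-1 receptor, was detected in Triple alone. Its signal was 5.61 after CpG, 6.04 after IFN-γ + αIL-10R, and 211 in Triple, and both of the lower values were not well above background. Triple was therefore at least 9.25-fold higher than CpG and at least 8.12-fold higher than IFN-γ + αIL-10R, and no fold is given between the other conditions. The gene has 1 spot (mm9, chr2:129125994-129126053, minus strand), which lies in row 6 of the 384 rows of the array. Among genes with a single spot that were well above background in Triple, 6.03% of 2238 in the first 48 rows exceeded both other conditions by more than 2-fold, against 3.77% of 15249 in the other rows. The part of the position in the Il1a value was not tested. The Il1b probe also has a spot in row 19, within that stretch, and this spot read 30675 in Triple, within the range of the others.

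Il18 followed another order. Its signal was 861 after CpG, 2928 after IFN-γ + αIL-10R, and 2192 in Triple, so that CpG alone was the lowest. Triple was 2.65-fold higher than CpG, a log2 fold of 1.41 (1.19 to 1.63), and CpG was 3.45-fold lower than IFN-γ + αIL-10R, a log2 fold of −1.79 (−1.999 to −1.57). Between Triple and IFN-γ + αIL-10R the log2 fold was −0.38 (−0.53 to −0.24), which was larger than the spot noise and under the 2-fold threshold. Il33, the remaining agonist, read 5.31, 5.79, and 5.69 in the order CpG, IFN-γ + αIL-10R, and Triple. Since none of these was well above background, Il33 has no fold.

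The transcript of the IL-1 receptor antagonist had the same order of conditions as Il1b, over a narrower range. Il1rn read 647 after CpG, 112 after IFN-γ + αIL-10R, and 5598 in Triple, all well above background. Triple was 9.001-fold higher than CpG, a log2 fold of 3.17 (2.95 to 3.39), and 51.4-fold higher than IFN-γ + αIL-10R, a log2 fold of 5.68 (5.49 to 5.88), which ranked 22nd of 18767. CpG was 5.71-fold higher than IFN-γ + αIL-10R, a log2 fold of 2.51 (2.26 to 2.76).

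Il18bp, the soluble inhibitor of IL-18, was instead bright wherever IFN-γ + αIL-10R was present. Its signal was 5040.3 after CpG, 47551 after IFN-γ + αIL-10R, and 46362 in Triple (probe at mm9, chr7:109164100-109164159, minus strand). Triple was 9.57-fold higher than CpG, a log2 fold of 3.26 (3.11 to 3.41). Triple and IFN-γ + αIL-10R did not differ beyond spot noise, with a log2 fold between −0.14 and 0.14. CpG was 9.57-fold lower than IFN-γ + αIL-10R, and ranked 108th from the lowest of 18981 genes in that comparison.

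**Figure D2:**
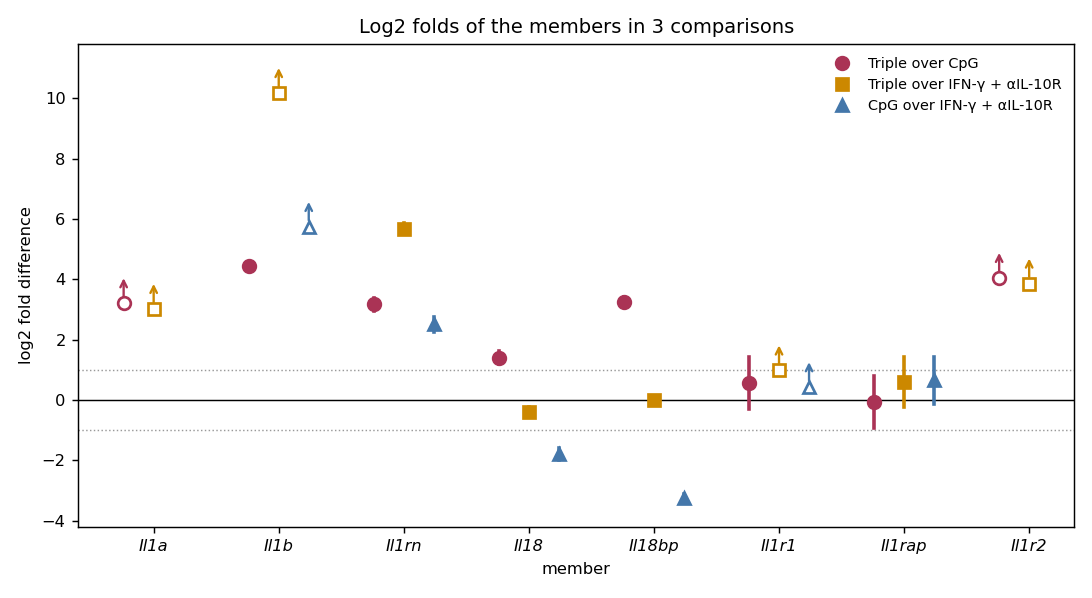
Log2 fold difference of 8 members in the 3 comparisons, with Il33 left out because it was not well above background on any array. Filled symbols are measured on both arrays with 95% intervals from spot noise (hidden by the symbol where narrow), open symbols with arrows are lower bounds, and dotted lines mark 2-fold. The highest is the bound of Il1b for Triple over IFN-γ + αIL-10R, at 10.18, and the lowest is Il18bp for CpG over IFN-γ + αIL-10R, at −3.26.

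The signaling receptor was dim in all conditions. Il1r1, the ligand-binding chain, read 36.4 after CpG, 6.20 after IFN-γ + αIL-10R, and 51.3 with Triple, and was not well above background with IFN-γ + αIL-10R. Triple and CpG differed by a log2 fold of 0.55 (−0.31 to 1.42), within spot noise, and Triple was at least 1.97-fold higher than IFN-γ + αIL-10R, just under the threshold. This log2 bound of 0.98 passed it with quantile normalization (1.01), with the 75th percentile taken over all probes (1.09), and in the authors' log2 table (1.09), and the log2 fold was 3.09 when dim signals were used as they stood. Each of these settings gave 5 members higher than in IFN-γ + αIL-10R in place of 4. For Il1rap, the accessory chain, 3 probes were present. The brightest, designed on transcript variant 2, read 72.0, 45.2, and 66.5 in the order CpG, IFN-γ + αIL-10R, and Triple, and none of its log2 folds, −0.06, 0.59, and 0.65 for Triple over CpG, Triple over IFN-γ + αIL-10R, and CpG over IFN-γ + αIL-10R, exceeded its spot noise. The probe of transcript variant 1 was not well above background on any array, with signals from 5.67 to 7.62. The remaining probe was well above background with CpG alone, at 34.5, so that the probes of Il1rap did not give 1 common pattern. The main values of Il1rap, here and below, are those of the variant 2 probe and do not describe variant 1.

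The decoy receptor, in contrast, was detected in Triple alone. Il1r2 read 6.01 after CpG, 15.6 after IFN-γ + αIL-10R, and 378 with Triple (probe at mm9, chr1:40180014-40180073, plus strand). Triple was at least 16.6-fold higher than CpG and at least 14.5-fold higher than IFN-γ + αIL-10R. The spots of Il1r1 and Il1r2 on the CpG array carried a mark for an outlying local background, which does not enter the processed signal. When spots with this mark were left out, no value remained for either gene. Folds against dim signals also depended on the background correction. With normexp correction, the log2 folds in Triple against CpG and against IFN-γ + αIL-10R came to 1.72 and 1.64 for Il1a and to 2.34 and 2.26 for Il1r2. Those against IFN-γ + αIL-10R were 8.23 in Triple and 3.85 in CpG for Il1b, and 4.91 and 1.93 for Il1rn.

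The balance of agonist and antagonist was compared through their folds, since levels of different probes cannot be set against each other. For the IL-1 pair, the log2 fold of Il1b exceeded that of Il1rn by 1.27 (1.04 to 1.49) in Triple over CpG, a 2.41-fold difference between the changes. It exceeded it by at least 4.49 for Triple over IFN-γ + αIL-10R, and by at least 3.22 for CpG over IFN-γ + αIL-10R. Both of these bounds leave out the spot noise of Il1b with IFN-γ + αIL-10R. Thus Il1b moved further than Il1rn in all 3 comparisons. Whether the same held for Il1a, the other agonist, is not known, since its folds are lower bounds. The log2 fold of Il1a minus that of Il1rn was at least 0.04 in Triple over CpG, where normexp correction gave 1.72 for Il1a and 2.98 for Il1rn, and at least −2.66 for Triple over IFN-γ + αIL-10R, so that its sign is not known. For the IL-18 pair, the antagonist moved further in both comparisons with CpG. The log2 fold of Il18 minus that of Il18bp was −1.85 (−2.12 to −1.59) in Triple over CpG, where both were higher, and 1.47 (1.22 to 1.73) for CpG over IFN-γ + αIL-10R, where both were lower. For Triple over IFN-γ + αIL-10R it was −0.38 (−0.59 to −0.18).

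**Figure D3:**
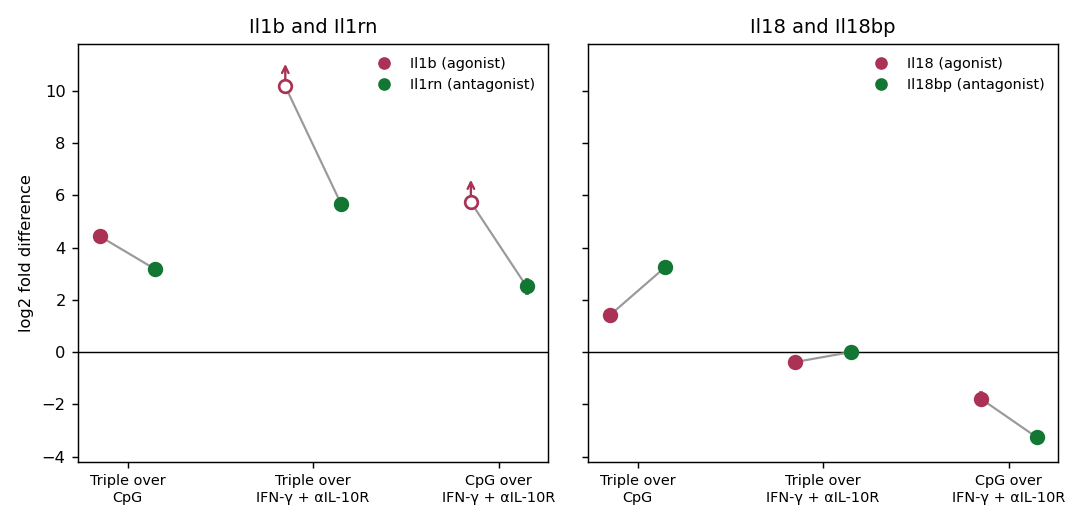
Log2 fold difference of Il1b with Il1rn (left) and of Il18 with Il18bp (right) in the 3 comparisons, agonists in red and antagonists in green. Bars are 95% intervals from spot noise, and open symbols with arrows are lower bounds. The line falls from Il1b to Il1rn in all comparisons, whereas Il18bp lies farther from 0 than Il18 where Triple or IFN-γ + αIL-10R is compared with CpG.

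Whether Triple exceeded the other conditions combined was described by dividing its scaled signal by the sum of theirs. The quotient was 7.66 for Il1rn, whose 3 signals were all well above background. It was at least 21.3 for Il1b, at least 7.74 for Il1r2, and at least 4.32 for Il1a, with dim signals at their upper limit. Il18bp, Il18, and Il1rap stayed under the sum, with quotients of 0.905, 0.595, and 0.587. For Il1r1 the quotient was at least 0.842, with a log2 quotient of 0.32 when dim signals were used as they stood, so that its side of the sum is not known. Among 17712 genes well above background in Triple, the median log2 quotient was −1.02, so that most of them lay under the sum. Of these genes, 1.67% exceeded the sum by more than 2-fold, as did Il1rn, Il1b, Il1r2, and Il1a. With normexp correction, the log2 quotient of Il1a was 0.68, under 2-fold.

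The other ligands and receptors of the family were mostly not detected. Of 12 listed genes, 10 were not well above background on any array, among them Il18r1 and Il18rap, the chains of the IL-18 receptor, Il1rl1, the IL-33 receptor, and Il1rl2, the IL-36 receptor. Il1f6, the array's name for the IL-36α gene, read 4.71, 5.29, and 135 in the order CpG, IFN-γ + αIL-10R, and Triple, and was at least 5.91-fold higher in Triple than in CpG. Sigirr, an inhibitory receptor of the family, was the only one well above background on all 3 arrays. It read 121, 191, and 59.4 in the same order, and was 3.14-fold lower in Triple than in IFN-γ + αIL-10R. Hence, of the 2 genes that could be compared, 1 was higher and 0 lower in Triple over CpG (7.54% and 10.2% of all genes), and 1 was higher and 1 lower for Triple over IFN-γ + αIL-10R (6.6% and 10.8%).

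Genes for maturation and release of IL-1 and IL-18 were nearly all detected, 20 of 22 on all 3 arrays. In Triple over CpG, 5 were higher and 1 was lower, where 7.54% of all genes were higher and 10.2% lower. The median log2 fold was −0.04 over the 21 genes well above background on either array, against −0.06 for all genes. Nlrp3, the sensor of the best-studied inflammasome, read 111 after CpG, 298 after IFN-γ + αIL-10R, and 658 with Triple, a 6.15-fold difference between Triple and CpG. Nlrp1a, another sensor, was 4.47-fold higher, Mefv, which encodes pyrin, was 3.27-fold higher, and Casp4, the gene for caspase-11, was 2.82-fold higher. Casp1, which encodes the enzyme that cleaves both precursors, read 31128, 54509, and 69005, and was 2.31-fold higher in Triple than in CpG. P2rx7, the ATP receptor that triggers the NLRP3 inflammasome, read 4141, 5979, and 1664 and was the 1 gene that was lower, by 2.39-fold.

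For Triple over IFN-γ + αIL-10R, 3 of the 22 genes were higher and 4 were lower, where the shares of all genes were 6.6% and 10.8%. The median log2 fold was −0.02 over 20 genes, against −0.04 for all genes. Mefv was 21.2-fold higher, with signals of 3138, 476, and 9854 in the order CpG, IFN-γ + αIL-10R, and Triple, so that it was lowest where Il1b and Il1rn were lowest. Nlrp1b, a sensor related to Nlrp1a, was 4.19-fold lower, P2rx7 was 3.50-fold lower, and Panx1, a membrane channel for ATP, was 3.48-fold lower. For CpG over IFN-γ + αIL-10R, 1 was higher and 4 were lower, where the shares of all genes were 5.04% and 5.84%. The median was −0.55 over 21 genes, against 0.01 for all genes. The gene that was higher was Mefv, by 6.50-fold, and those that were lower were Nlrp1b, Aim2, Nlrp3, and Capn1, by 2.57-fold to 3.90-fold. The scaffold Pycard and the pore-forming Gsdmd did not pass 2-fold in any comparison.

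Each of the 20 signaling genes below the receptors was detected on all 3 arrays. In Triple over CpG 2 were higher and 0 lower, where 7.54% of all genes were higher and 10.2% lower, with a median log2 fold of 0.15 against −0.06 for all genes. These were Irak2, a kinase of the MyD88 complex (2.24-fold), and Peli1, a ubiquitin ligase (2.61-fold). For Triple over IFN-γ + αIL-10R, 3 were higher and 1 was lower, where the shares of all genes were 6.6% and 10.8%, with a median of 0.25 against −0.04 for all genes. The largest fold was that of Irak3, the inhibitory member of the kinase family, which read 7877 after CpG, 883 after IFN-γ + αIL-10R, and 7541 with Triple. Both CpG and Triple exceeded IFN-γ + αIL-10R for Irak3, by 8.79-fold and 8.75-fold, and it was the 1 gene of the list that passed 2-fold for CpG over IFN-γ + αIL-10R. In that comparison 5.04% of all genes were higher and 5.84% lower. Myd88 itself, the shared adaptor, had log2 folds of 0.41 in Triple over CpG and 0.22 for Triple over IFN-γ + αIL-10R.

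**Figure D4:**
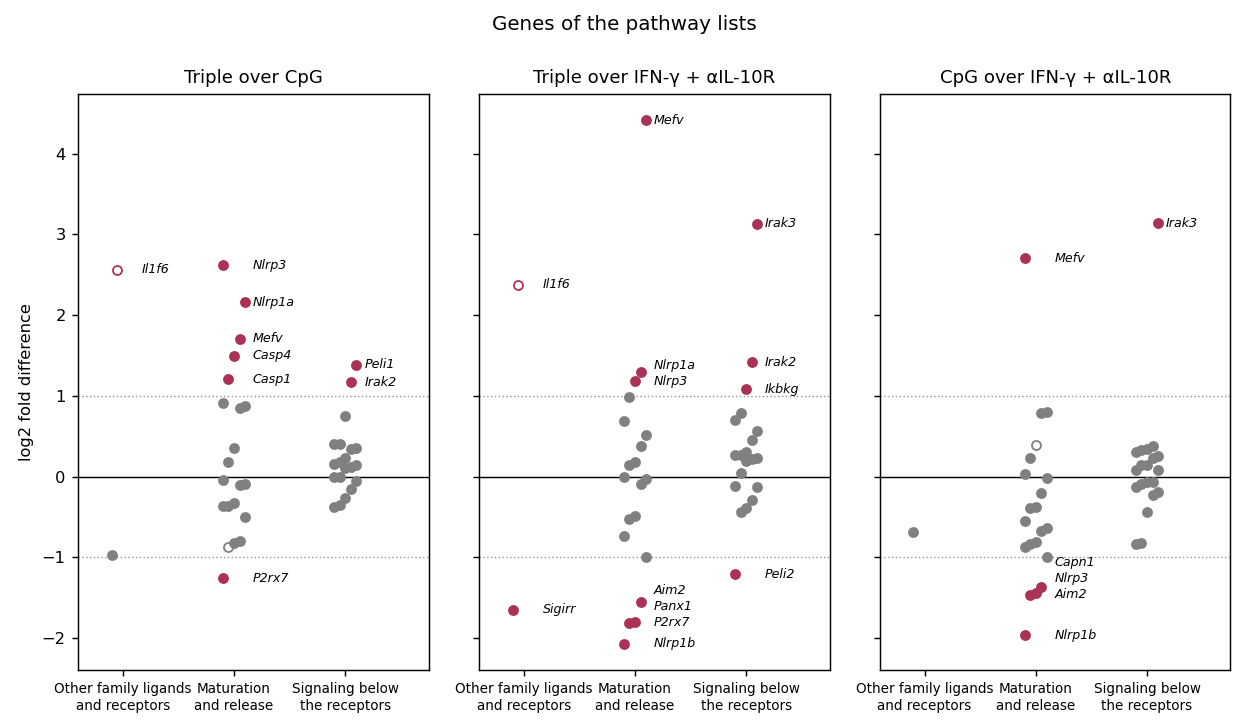
Log2 fold difference of the genes of the 3 pathway lists in each comparison. Red symbols with names passed 2-fold (dotted lines), grey symbols did not, and open symbols are bounds, with genes dim on both arrays left out. Mefv stands highest for Triple over IFN-γ + αIL-10R, at 4.41, and Irak3 is high in both comparisons against that condition, at 3.13 and 3.14.

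The genes with the most similar pattern were sought by the distance between centred log2 signals over the 3 arrays, among genes well above background on the same arrays. Il6 was nearest to Il1b, at a distance of 1.67, and read 319, 6.52, and 24279 in the order CpG, IFN-γ + αIL-10R, and Triple, followed by Gfi1b and Il12b at 2.94 and 3.07. They were taken from 194 genes that, like Il1b, were dim on the IFN-γ + αIL-10R array and well above background on the others. Their low signal with IFN-γ + αIL-10R was thus set by the choice. In Triple over CpG the log2 folds of Il6, Gfi1b, and Il12b were 6.31, 1.15, and 6.90, against 4.44 for Il1b. Fpr2, a formyl peptide receptor, was nearest to Il1rn, at 0.20, with 6455, 1343, and 63371, followed by Cd200 and Ppap2a. Tapbpl, Gbp9, and Tgm2 were nearest to Il18bp, at 0.12 to 0.24, and Stk39, Rmi2, and Phf11d were nearest to Il18, at 0.03 to 0.10. For Il1a and Il1r2 the distance rests on the Triple signal alone, because both other signals were at the lower limit. Among 256 genes of that kind, Tmigd1 was nearest to Il1a, and Il23r, a chain of the IL-23 receptor, was nearest to Il1r2. For Il18, Il1rn, and Il18bp the nearest were taken from 10996 genes, and 3 arrays give little room to tell patterns apart.

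As a check of the labels, Cxcl9, a chemokine induced by IFN-γ, read 38.6 after CpG, 14431 after IFN-γ + αIL-10R, and 230850 with Triple, and Il12b, induced by TLR ligands, read 71.8, 6.85, and 8242. Of the 13 genes in the check list, 11 were higher in Triple than in CpG and 7 were higher in Triple than in IFN-γ + αIL-10R, where Ciita, the regulator of MHC class II genes, was lower. All 8 macrophage markers were well above background on every array, with signals of at least 812, though their signals were not constant. In Triple over CpG, Mertk was 4.05-fold higher and Lyz2 was 2.19-fold lower. For Triple over IFN-γ + αIL-10R, Cd14 was 16.9-fold higher and Cd68 was 2.24-fold lower. For CpG over IFN-γ + αIL-10R, 3 were more than 2-fold higher and 2 were more than 2-fold lower, where the shares of all genes were 5.04% and 5.84%. Neutrophil transcripts are of interest beside Il1r2 and Il1rn, which neutrophils express. Ngp, Ltf, and Mpo were not well above background on any array. Camp, however, had the same order of conditions as Il1rn, with 72.9 after CpG, 17.5 (not well above background) after IFN-γ + αIL-10R, and 139 with Triple, and relative to IFN-γ + αIL-10R it was at least 5.34-fold higher in Triple and at least 2.69-fold higher in CpG. Ly6g, with 555, 7699, and 2658, had another order. The summed signal of the 6 neutrophil markers was 3495 after CpG, 9363 after IFN-γ + αIL-10R, and 4354 with Triple, mostly from Ly6g and Elane, the latter with 2839, 1615, and 1539. The summed signals of 4 dendritic cell markers, 49.99, 74.98, and 213, and of 4 fibroblast markers, 302, 127, and 505, were highest in Triple. Dcn, a fibroblast marker, read 80.6, 16.4 (not well above background), and 342, and was higher in Triple, by 4.42-fold over CpG and by at least 13.2-fold over IFN-γ + αIL-10R. The dendritic cell markers Zbtb46 and Xcr1, at 133 and 60.7 in Triple, were also more than 2-fold higher there than in both other conditions, by at least 5.51-fold and 2.66-fold over CpG, and Col3a1 exceeded its IFN-γ + αIL-10R signal by at least 2.25-fold. Flt3, Cd209a, and Pdgfra were not well above background on any array. Col1a1, the remaining fibroblast marker, read 177, 94.5, and 98.3 in the order CpG, IFN-γ + αIL-10R, and Triple. It was highest with CpG and did not pass 2-fold in any comparison. Of the 4 T cell and 4 B cell markers, 2 each were detected. Among these Cd79b, of B cells, read 801, 182, and 108 in the same order, and was 7.14-fold lower in Triple than in CpG and 4.33-fold higher in CpG than in IFN-γ + αIL-10R. Of 3 mast cell markers only Kit was, at 93.9 with CpG and 48.4 with Triple. Their part in the differences of the members was not tested.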

How the data were processed

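For 3 one-colour arrays on 1 slide with 1 scan time, the authors deposited Agilent Feature Extraction files (version 10.10.1.1). The intensities used are the processed signals that the authors deposited, made by the scanner software by subtracting a modelled background and removing spatial trends. The same files mark spots well above background and outliers. The log2 table that the authors deposited differed from the log2 of these intensities by a constant for each array. Controls and outlier spots were omitted, log2 values of repeated spots were averaged, and arrays were aligned at the 75th percentile of probes detected on all 3 (44.2% of probes were well above background per array on average). A gene was its probe with the highest mean. A fold was called past 2-fold if the brighter signal was well above background, and it is a lower bound where the dimmer one was not. There was 1 array per condition, and the number of arrays limits the precision. The doses are those of the study's methods. The members, the gene lists, and the 5 motifs were chosen with earlier results of these data known. All members are named, with at most 4 genes in full per list and comparison, genes past 2-fold elsewhere, and the 3 nearest genes of a member. The quotient of Triple over the sum of the other conditions, and the settings without marked local backgrounds or without the first 48 rows, were chosen after seeing the data. The code was tested on simulated arrays with known changes. Python 3.11.15 (numpy 2.4.6, pandas 2.3.3), R 4.3.3, and limma 3.58.1 (normexp, offset 50) were used.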

Additional observations from a re-analysis of the deposited data

How the results depend on the processing

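The 14 member folds past 2-fold kept their direction and stayed past 2-fold in all 200 values computed under the alternatives. A reversal was counted only for log2 values over 1 in size in the main setting, and 0 were found. Counts and smaller log2 values could not be marked as reversed. Il1r1 for Triple over IFN-γ + αIL-10R, with a log2 bound of 0.98, passed 2-fold with quantile normalization, with all probes for the 75th percentile, in the authors' table, and without a background filter (1.01, 1.09, 1.09, and 3.09), which raised the members called higher from 4 to 5. Log2 folds under the threshold crossed 0 for Il18bp (−0.15 to 0.11) and Il1rap (−0.05 to 0.70) against IFN-γ + αIL-10R in Triple, and for Il1rap (−0.26 to 0.13) against CpG. Normexp background correction, which adds an offset of 50, lowered the log2 folds against dim signals to 1.72 (Il1a) and 2.34 (Il1r2) in Triple over CpG, to 1.64 (Il1a), 8.23 (Il1b), 4.91 (Il1rn), and 2.26 (Il1r2) for Triple over IFN-γ + αIL-10R, and to 3.85 (Il1b) and 1.93 (Il1rn) for CpG over IFN-γ + αIL-10R. The Il1b minus Il1rn difference in the comparisons with IFN-γ + αIL-10R was then 3.32 for Triple and 1.92 for CpG. Without a background filter, Il1a and Il1r2 had log2 folds in Triple of 5.29 and 6.03 against CpG and of 5.16 and 4.64 against IFN-γ + αIL-10R. The Il1b log2 fold of 4.44 in Triple over CpG moved by more than its narrow spot noise with normexp (4.38), median scaling (4.51), no scaling (4.38), all probes for the 75th percentile (4.50), spike-in scaling (4.34), the authors' table (4.50), and relative to Actb (4.37). Spike-in scaling used 5 of 10 spike-in probes.

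Counts of members were lower where both arrays had to be well above background, by construction of that rule: 1 was higher than in IFN-γ + αIL-10R in Triple, 1 in CpG, 1 in Triple against both others, and 1 over the sum of the others. For other ligands and receptors, this rule gave 0 higher in both Triple comparisons, whereas no filter gave 3 and 2 higher, and 1 lower for CpG over IFN-γ + αIL-10R. No scaling, spike-in scaling, and a threshold of 1.5-fold each gave 1 lower in Triple over CpG, and 1.5-fold gave 1 lower for CpG over IFN-γ + αIL-10R. Normexp, or leaving out marked local backgrounds, gave 0 lower for Triple over IFN-γ + αIL-10R. For maturation and release, thresholds of 1.5-fold and 3-fold gave 8 and 3 higher and 4 and 0 lower in Triple over CpG, and 5 and 1 higher for Triple over IFN-γ + αIL-10R. For CpG over IFN-γ + αIL-10R, 1.5-fold gave 3 higher, and the thresholds gave 10 and 1 lower. For signaling genes, 3-fold gave 0 higher in Triple over CpG. For Triple over IFN-γ + αIL-10R the thresholds gave 5 and 1 higher, and 3-fold and normexp both gave 0 lower. For CpG over IFN-γ + αIL-10R, 1.5-fold gave 2 lower.

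No paired analysis was possible because there was a single array for each condition, and for the same reason no array was left out in turn. Without the first 48 rows Il1a has no value. Signal over background limits the statements on Il1a, Il1r1, Il1r2, Il33, and Il1rap, whereas differences between cultures were not measured for any member.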

Other observations

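The IL-10 axis, whose receptor was blocked in 2 of the 3 conditions, was read by 3 genes. Il10 read 3118 after CpG, 1272 after IFN-γ + αIL-10R, and 9957 in Triple, which exceeded CpG by 3.32-fold and IFN-γ + αIL-10R by 8.03-fold. Socs3, a feedback inhibitor of cytokine signaling, had the same order, with 17358, 8207, and 52485. Il10ra, the ligand-binding chain of the receptor, was highest with IFN-γ + αIL-10R, with 8119, 18952, and 13483. The order of Il10 and Socs3 is that of Il1b and Il1rn, and Tnf, a cytokine induced by TLR ligands, also had it, with 15636, 7771, and 90432.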
